A study of Homo sapiens with 6 samples.

Results

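The genes described here encode the SR proteins, hnRNP proteins and snRNP proteins that choose splice sites and build the spliceosome. They were taken by symbol: every protein-coding gene named SRSF, HNRNP or SNRP with a suffix, SF3A or SF3B with a number, U2AF1 or U2AF2. This gave 61 genes of the 58735 in the count table, 19951 of which are protein-coding. By role they are 12 SR proteins, 26 hnRNP proteins, 8 Sm core proteins, 4 proteins specific to the U1 and U2 snRNPs, 9 subunits of SF3A and SF3B, and the 2 subunits of U2AF. The rule reads only symbols, and it was set with earlier results of these data known.

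RNA was sequenced from SY5Y, a human neuroblastoma line, in 6 libraries, 3 from a derived line labelled DLX5 overexpression and 3 labelled Control. DLX5 is a homeobox transcription factor, and the series asks how it relates to MYCN in this tumour. The promoter and vector behind the overexpression, what the control cells carried, and whether either line was a single clone are not given in the sources used here. Nor is it stated whether replicates were grown separately, so the p-values measure only the spread among these libraries, which may be technical.

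Before most human messages leave the nucleus their introns are removed by the spliceosome. The U1 snRNP pairs with the start of an intron, U2AF binds the pyrimidine tract and the AG at its end, and the U2 snRNP, with SF3A and SF3B, settles on the branch point. A ring of Sm proteins holds each of the main spliceosomal RNAs except U6. SR proteins mostly bind exons and help recruit these parts, while hnRNP proteins coat the transcript and often repress sites. Several SR and hnRNP genes regulate their own message through exons that send it to nonsense-mediated decay, and gene counts do not separate those forms.

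The libraries held between 14644077 and 16886026 counts assigned to genes. DLX5 lay between 1569 and 1677 CPM (counts scaled by TMM factors and library size) in the libraries labelled for it and between 12.35 and 13.8 CPM in control, matching the labels. MYCN rose by 2.45 ± 0.11 and MYC fell by 0.43 ± 0.07 on the log2 scale (± SE). Among markers of the labelled cell type, 10 of 10 sympathetic neuroblastoma genes were lower with DLX5. Their summed level was 1970 to 2088 CPM against 5435 to 5913 CPM in control, and none was at 0 in every library. Fibroblast markers were higher for 8 of 9 genes, summing to 6575 to 6834 CPM against 1439 to 1491 CPM. Epithelial markers were higher for 5 of 7 and lower for 1, at 363 to 385 CPM against 20.4 to 24.1 CPM. Schwann markers, 2 of 5 tested higher and 2 lower, summed to 27.3 to 29.9 CPM against 41.9 to 47.5 CPM. Of 4 endothelial and blood markers tested 1 was called higher, PECAM1, at 14, 11 and 16 counts with DLX5 and 1, 0 and 1 counts in control, and 0 lower. The list summed to 2.65 to 3.85 CPM against 1.26 to 2.07 CPM, with PTPRC at 0 in the DLX5 libraries and CDH5 at 0 in control. These marker values moved with the same contrast as the splicing genes, and their part in the results that follow was not tested. In bulk RNA, fewer cells of a kind and less RNA per cell cannot be told apart.

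Most splicing factor genes were lower in the DLX5 libraries, by modest amounts. Of the 57 that could be tested, 41 fell, 1 rose and 15 did not pass the test (edgeR quasi-likelihood test, Benjamini-Hochberg adjusted p under 0.05 over 17269 genes). Thus 71.9% of the tested members fell and 1.75% rose, where 28.8% of all tested genes fell and 29.8% rose. The median log2 fold change of the members was -0.33, with a range from -0.89 to 0.17, and 49 of 57 values were negative. Over all tested genes the median was 0.00 when rounded, with 8658 values negative and 8611 positive. TMM scaling assumes that most genes do not change, so this balance is partly set by the scaling. The falls of the members are relative to the other genes. The filter on low counts removed 4 members, HNRNPCL1, HNRNPCL2, HNRNPCL3 and HNRNPCL4, copies related to HNRNPC on chromosome 1 that had 0 counts in all 6 libraries.

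Splicing factors are abundant, so their background among abundant genes is also given. Of the 5858 tested genes at 40 CPM or more on average, 40.3% fell and 30.5% rose, with a median of -0.06. Of the 52 members at that level 39 fell and 1 rose, with a median of -0.34. The 3 libraries of a group did not overlap with the other 3 in 39 of the 41 members that fell, in the member that rose and in 7 of the 15 that did not pass. The same separation held for 62.5% of all tested genes and 73.2% of those at 40 CPM or more. Among the tested members 15 of 57 (26.3%) fell by more than 0.5 on the log2 scale, and 2403 of all 17269 tested genes did (13.9%). None of the members fell by 1 or more, while 895 of all tested genes did (5.18%).

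**Figure D1:**
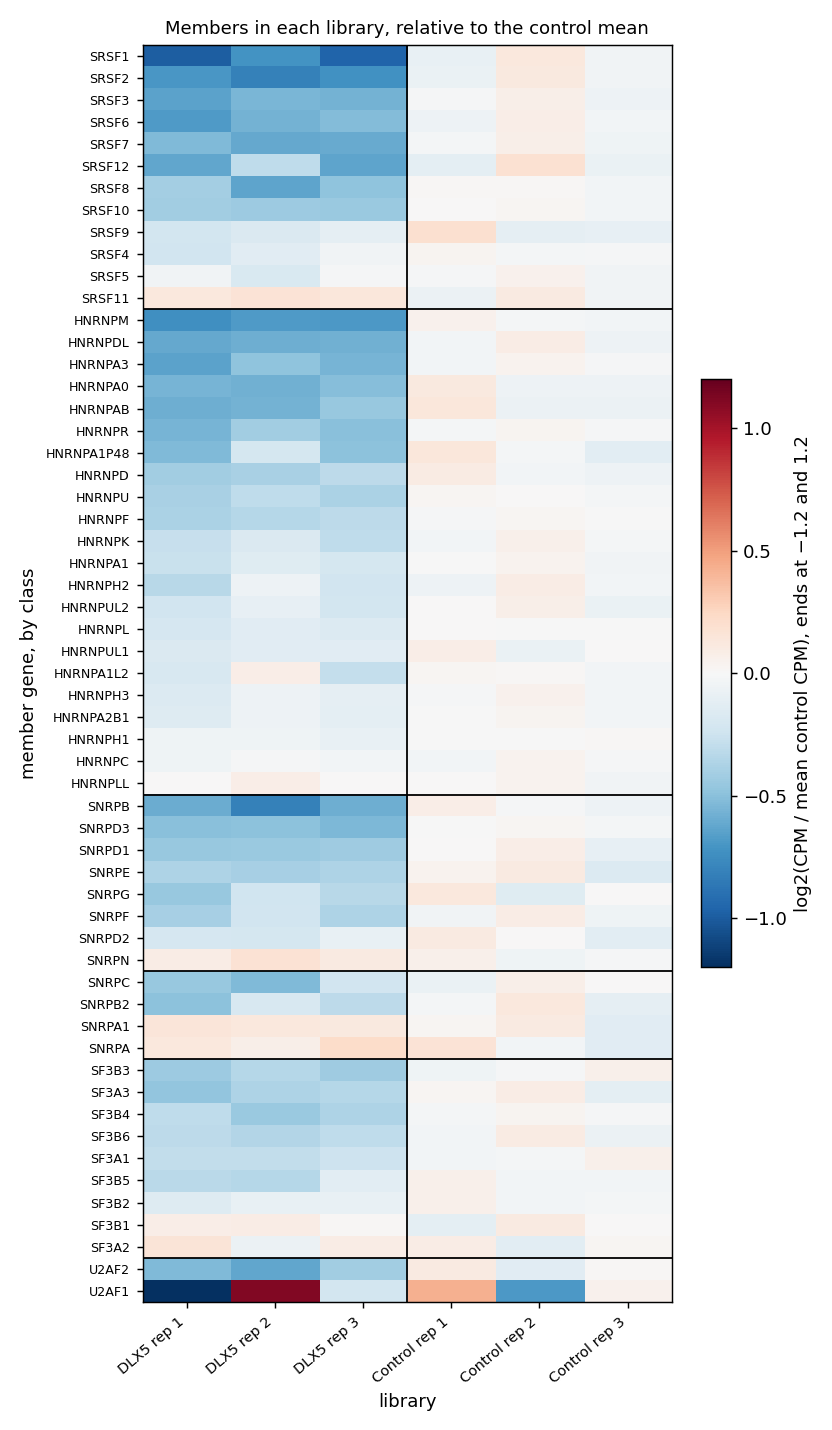
Each row is 1 of the 57 tested members, grouped by class, and each column is a library. Colour gives log2 of CPM over the mean control CPM, with the scale ending at -1.2 and 1.2, so the value of U2AF1 in DLX5 replicate 1 lies beyond its end. Most rows are blue in all 3 DLX5 libraries, while U2AF1 varies within both groups.

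The members together took 1.17% ± 0.0124 of all counts in the DLX5 libraries and 1.51% ± 0.0228 in control (SD, n = 3). Summed per length, as deposited FPKM, they stood at 2436 ± 45.8 with DLX5 and 3072 ± 74.3 in control, or 79.3% of control. By class the summed FPKM was lowest relative to control for U2AF (70.0%), SR proteins (72.1%) and Sm core proteins (75.0%). The U2AF sum is nearly that of U2AF2 alone, which held 49.0 of 49.8 FPKM with DLX5 and 70.4 of 71.2 FPKM in control. The hnRNP proteins followed at 80.5% and SF3A and SF3B at 84.7%, and the U1 and U2 proteins kept 88.0%. The order is a description, and differences between classes were not tested. Spread among libraries was small: the median coefficient of variation of a member was 5.17% in control and 3.89% with DLX5, and apart from U2AF1 none went above 13.4%.

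**Figure D2:**
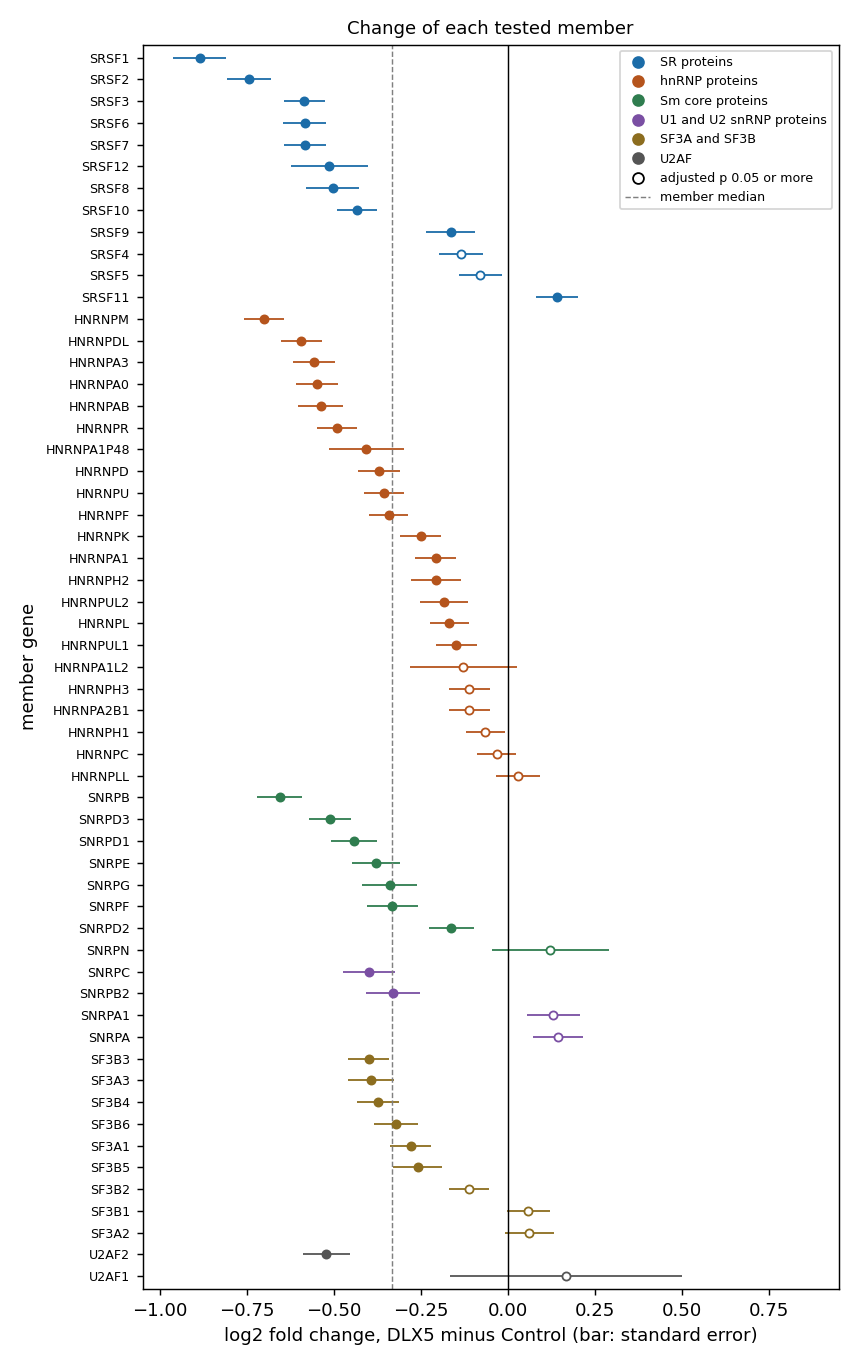
Points give the log2 fold change of each tested member, DLX5 minus Control, with its standard error. Colours mark the class, open points did not pass an adjusted p of 0.05, and the dashed line is the member median of -0.33. SRSF1 is farthest to the left, SRSF11 is the filled point to the right of 0, and U2AF1 has the widest bar.

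SR proteins had the lowest median of the 6 classes, -0.51. Of 12 genes 9 fell, 1 rose and 2 did not pass. SRSF1 (ENSG00000136450, chromosome 17, 58003360 to 58007346, minus strand, GRCh38), the founding SR protein also known as ASF/SF2, stood at 53.2, 64.3 and 54.5 CPM with DLX5 and at 99.4, 115 and 103 CPM in control. All 3 DLX5 libraries lay well below the lowest control, at 54.1% of the control mean. This was a fall of 0.89 ± 0.08 on the log2 scale (± SE, adjusted p = 1.19e-10), larger than that of any other tested member. Of the 50-base stretches of SRSF1 transcripts, 50.8% also occur in the overlapping annotated gene AC015813.2, so the SRSF1 count is uncertain. Almost no counts were assigned to AC015813.2, and how reads matching both genes were counted was not tested.

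SRSF2, also known as SC35, had 137, 127 and 135 CPM with DLX5 against 211, 241 and 216 CPM. Its libraries were as cleanly separated, and the log2 fold change was -0.74 with a standard error of 0.06 (adjusted p = 9.94e-11). SRSF3, the smallest of the classical SR proteins, went from 368, 391 and 357 CPM in control to 239, 254 and 251 CPM, and fell by 0.58 ± 0.06. SRSF7, its close relative with a zinc knuckle, went from 212, 227 and 208 CPM to 149, 141 and 142 CPM (adjusted p = 3.71e-09). SRSF6 stood at 144, 156 and 161 CPM with DLX5 and at 222, 244 and 226 CPM in control. SRSF3, SRSF6 and SRSF7 were thus at nearly the same share of control, 66.7% each, and none of their groups overlapped. Further falls were seen in SRSF12 (-0.51), SRSF8 (-0.50) and SRSF10 (-0.43), a regulator that acts as a repressor when dephosphorylated. SRSF12 was by far the least abundant of these, at 14.2 ± 1.89 CPM with DLX5 and 20.2 ± 2.34 CPM in control (SD, n = 3).

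The other SR genes showed small changes or none that passed. SRSF9 had 108, 112 and 117 CPM with DLX5 and 143, 117 and 118 CPM in control, where only control replicate 1 stood apart. Its fall of 0.16 ± 0.07 passed narrowly (adjusted p = 0.0498) and became -0.065 without control replicate 1 (adjusted p = 0.431), and the call was lost too without DLX5 replicate 1 or 2. It was also lost with DESeq2 (adjusted p = 0.0733), RLE factors (0.0514), limma-voom (0.0608), a filter of 1 CPM (0.0544) and both FPKM scales (0.126 and 0.129), at -0.16 in each. SRSF4 (104, 111 and 119 CPM with DLX5, 125, 121 and 122 CPM in control) did not overlap between groups but did not pass (log2 fold change -0.13, adjusted p = 0.0674; without DLX5 replicate 3, -0.18 and adjusted p = 0.036). SRSF5, at 167, 152 and 171 CPM against 171, 179 and 167 CPM, overlapped and did not pass (-0.08, adjusted p = 0.279). SRSF11, an SR-related protein also known as p54, was the member that rose. Its 192, 197 and 193 CPM lay just above 168, 189 and 171 CPM in control. The rise of 0.14 ± 0.06 was small (adjusted p = 0.0454). Its call was lost without control replicate 1 (adjusted p = 0.175), control replicate 3 (0.149) or any DLX5 replicate (0.089 to 0.092), with upper-quartile factors (0.131) and with no filter on low counts (0.0784).

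The hnRNP proteins are the largest class. Falls numbered 16 of 22 tested, with 0 rises and 6 genes not passing, and the median was -0.23. HNRNPM (chromosome 19, 8444767 to 8489114, plus strand), which binds GU-rich RNA, fell most. It had 278, 289 and 287 CPM with DLX5 and 481, 455 and 453 CPM in control, 61.5% of the control mean, with tight and well separated groups. The log2 fold change was -0.70 with a standard error of 0.06, and its adjusted p of 4.88e-11 was the smallest among the members.

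HNRNPDL, a relative of HNRNPD known to autoregulate through its last exons, went from 350, 381 and 345 CPM to 235, 238 and 240 CPM and fell by 0.59 ± 0.06. HNRNPD itself, also known as AUF1 and a regulator of messages with AU-rich elements, fell by 0.37 ± 0.06. The genes lie on chromosome 4 on the same strand, 48060 bases apart. HNRNPA3, an A/B-type protein, had 389, 435 and 413 CPM with DLX5 against 594, 625 and 601 CPM. The intronless HNRNPA0 had 345, 340 and 358 CPM against 550, 488 and 487 CPM. HNRNPAB had 237, 240 and 259 CPM against 391, 340 and 339 CPM. In both HNRNPA0 and HNRNPAB control replicate 1 was the highest library, and in neither did the groups overlap. The log2 fold changes were -0.56, -0.55 and -0.54 in that order, with standard errors of 0.06.

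HNRNPA1, a repressor of many exons, was the most abundant member per length, at 253 ± 11.4 FPKM with DLX5 and 292 ± 8.62 FPKM in control (SD, n = 3). Its libraries stood at 1250, 1357 and 1292 CPM with DLX5 and at 1496, 1549 and 1457 CPM in control, a separated but small difference. It fell by 0.21 ± 0.06 (adjusted p = 0.00384). Of its 50-base stretches 22.8% also occur in another gene, so its count carries some uncertainty. HNRNPR had 228, 251 and 237 CPM with DLX5 and 330, 343 and 332 CPM in control, without overlap, and fell by 0.49 ± 0.06. The remaining members of this class that fell were HNRNPA1P48 (-0.41), the scaffold protein HNRNPU (-0.36), HNRNPF (-0.34), the poly(C)-binding HNRNPK (-0.25), HNRNPH2 (-0.21), HNRNPUL2 (-0.18), HNRNPL (-0.17) and HNRNPUL1 (-0.15). HNRNPA1P48 shares 51.6% of its 50-base stretches with another gene, mostly HNRNPA1, so its counts are uncertain. The HNRNPUL2 count is uncertain too, since 43.2% of its stretches lie in a readthrough gene. HNRNPUL1 overlaps TGFB1, which held 33.4% as many counts and rose by 1.66. The smallest falls lost their call in some fits with a library left out, while the log2 fold changes stayed negative. Without DLX5 replicate 1 the calls of HNRNPH2, HNRNPUL2, HNRNPL and HNRNPUL1 were lost, at -0.14, -0.15, -0.15 and -0.13. Without DLX5 replicate 3 those of HNRNPH2, HNRNPUL2 and HNRNPUL1 were lost, at -0.19, -0.16 and -0.15. Without control replicate 2 those of HNRNPH2 and HNRNPUL2 were lost, at -0.17 and -0.15. The call of HNRNPUL1 was also lost without DLX5 replicate 2, control replicate 1 or control replicate 3, at -0.15, -0.11 and -0.15.

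Those that did not pass included abundant genes. HNRNPA2B1, which sorts RNAs and microRNAs, had 1055, 1129 and 1084 CPM with DLX5 and 1174, 1201 and 1152 CPM in control (-0.11, adjusted p = 0.104). HNRNPC, which binds uridine tracts, had 432, 444 and 439 CPM against 439, 460 and 445 CPM (-0.03, adjusted p = 0.647). HNRNPH1, which binds G-rich tracts, had 433, 434 and 422 CPM against 447, 449 and 452 CPM (-0.07, adjusted p = 0.33). In HNRNPA2B1 and HNRNPH1 the DLX5 libraries were all below control by a small margin, and in HNRNPC the groups overlapped. HNRNPH3 had 140, 151 and 146 CPM against 155, 163 and 154 CPM (-0.11, adjusted p = 0.111), and HNRNPLL had 84.6, 89.0 and 84.7 CPM against 84.5, 86.9 and 81.7 CPM (0.03, adjusted p = 0.711). With upper-quartile factors HNRNPA2B1 and HNRNPH3 passed, at -0.15 each (adjusted p = 0.0332 and 0.036). HNRNPA1L2, a retrotransposed relative of HNRNPA1, was low, at 5.47, 6.59 and 5.11 CPM against 6.37, 6.29 and 6.09 CPM (-0.13, adjusted p = 0.496).

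The promoters of the members were searched for sites of the factors named in the series, because CACGTG is the canonical E-box of MYC family proteins and TAATTA is a core bound by many homeodomain proteins. RefSeq promoters on GRCh38.p14 were found for 55 of 61 members, and the 250 bases before each start were read on both strands. For 47 of the 55, the last 30 bases of the promoter record lay in a GENCODE 29 transcript of the gene. For the others the start and direction rest on RefSeq alone. The E-box was found in 7 of 55 windows (12.7%), against 6.49% of 27305 windows of the same length. Those 27305 cover every RefSeq symbol with a full window and were not limited to protein-coding genes, unlike the members. Neither set was limited to expressed genes, and the member windows include those of HNRNPCL1 and HNRNPCL2, which had 0 counts. Each site is printed with 12 bases on either side, with the matched letters in capitals, so that sites of members that fell and of members that did not pass can be set side by side.
HNRNPM, chr19:8444921-8444950, plus strand: gttgcgtcgggtCACGTGggcgcgcaggcg
HNRNPDL, chr4:82430364-82430393, minus strand: agaggcccggggCACGTGcagaaaggagcc
HNRNPA3, chr2:177212711-177212740, plus strand: cggaaaacgcgtCACGTGacgactggcccc
HNRNPD, chr4:82374001-82374030, minus strand: gcgctctcgcgtCACGTGaccgggacgcgc
HNRNPH2, first site, chrX:101408168-101408197, plus strand: ccgagagttgctCACGTGaccgagatctca
HNRNPH2, second site, chrX:101408201-101408230, plus strand: gacgtaggcgctCACGTGattactcgctta
HNRNPH3, chr10:68331631-68331660, plus strand: tgccggtcgaacCACGTGgggccctttccg
SF3B1, chr2:197435119-197435148, minus strand: tggcagttctgtCACGTGtcacccgacgga
HNRNPC, TAATTA site, chr14:21269510-21269539, minus strand: ggttgaactgtcTAATTAggagcgggagcg

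The E-box stood in 5 of the 36 matched members that fell and in 2 of the 15 matched members that did not pass. HNRNPM, with the largest fall of the hnRNP class, and SF3B1, at a log2 fold change of 0.06, both carry it. It began 42 bases before the RefSeq start in HNRNPM, 71 in HNRNPA3, 156 in HNRNPDL and 108 in SF3B1. The sites of HNRNPM, HNRNPA3, HNRNPDL, HNRNPD and HNRNPH3 lie inside the gene spans of the count table, which start farther upstream. Those of SF3B1 and HNRNPH2 lie upstream of their spans. TAATTA was found in HNRNPC alone (1.82% of member windows, against 4.49% of all). Other letters searched were CCAAT in 40% of member windows against 33.0% of all, and the ETS core CCGGAA in 38.2% against 14.8%. The median GC content of the windows was 62.4% for members and 58% for all, and its relation to the motif shares was not tested. A match describes the letters of a window, and no binding was measured here.

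Of the 8 Sm core genes 7 fell, 0 rose and 1 did not pass, and the median was -0.36. SNRPB (chromosome 20, 2461634 to 2470853, minus strand), which encodes SmB and SmB', had 143, 123 and 144 CPM with DLX5 and 227, 213 and 206 CPM in control. The groups were far apart, and it fell by 0.66 ± 0.07 (adjusted p = 2.52e-09). Per length it was the most abundant Sm gene in control, at 167 FPKM against 129 FPKM for SNRPD2. With DLX5 it was at 106 FPKM, below SNRPD2 at 115 FPKM. SNRPD3 had 72.2, 72.3 and 70.1 CPM against 102, 104 and 100.4 CPM and fell by 0.51 ± 0.06. SNRPD1 had 64.3, 64.6 and 65.6 CPM against 88.5, 93.3 and 82.5 CPM and fell by 0.44. Both were very even across the DLX5 libraries and did not overlap control. GUCD1 overlaps SNRPD3 and held 81.9% as many counts, and its own log2 fold change was -0.03.

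SNRPE had 71.7, 69.9 and 71.5 CPM against 95.1, 99.6 and 82.4 CPM (-0.38). SNRPF, its neighbour in the ring, had 42.8, 48.3 and 43.8 CPM against 55.0, 60.2 and 54.6 CPM (-0.33). These groups did not overlap, nor did those of SNRPG (-0.34), for which pseudogenes held 7.28% of the counts of gene and pseudogenes together. SNRPD2 changed least of those that fell. It had 181, 180.1 and 196 CPM with DLX5 and 225, 210 and 191 CPM in control, so that DLX5 replicate 3 lay above control replicate 3. The fall of 0.16 ± 0.06 passed (adjusted p = 0.0319). The call was lost on FPKM values (adjusted p = 0.0742) and without control replicate 1 or 2 or DLX5 replicate 1 or 2, with values from -0.11 to -0.16.

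SNRPN (chromosome 15, 24823637 to 24978723, plus strand), the paralog of SNRPB from the imprinted locus of Prader-Willi syndrome, was the Sm gene that did not pass. It was low, at 4.63, 4.91 and 4.69 CPM with DLX5 and 4.56, 4.20 and 4.32 CPM in control. The DLX5 libraries were marginally higher without overlap, and the difference did not pass (log2 fold change 0.12 ± 0.17 SE, adjusted p = 0.555). The host transcript SNHG14 starts at 24978583 and so overlaps only the end of SNRPN. Over its whole length it held 1245% as many counts, and it fell by 0.65 ± 0.07. Of the 50-base stretches of SNRPN transcripts 25.8% also occur in another gene, the largest number in SNURF, so the assignment of reads here is uncertain. Over the coding sequence SNRPB and SNRPN share 591 of 732 aligned bases (80.7%).

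Of the 4 proteins specific to U1 and U2, 2 fell and 2 did not pass, and the median was -0.10. SNRPC, the U1 protein that steadies pairing at the intron start, had 59.6, 56.7 and 69.7 CPM with DLX5 and 77.3, 86.0 and 82.0 CPM in control, and fell by 0.40 ± 0.07 (adjusted p = 4.94e-05). The U2 protein SNRPB2 had 52.0, 64.2 and 59.1 CPM against 72.2, 80.0 and 68.2 CPM and fell by 0.33 ± 0.08 (adjusted p = 0.000705). In both genes every DLX5 library lay below every control. SNRPA, which binds a stem-loop of U1 RNA, had 92.6, 89.2 and 98.7 CPM against 94.7, 82.6 and 76.9 CPM, and SNRPA1, the U2 partner of SNRPB2, had 44.2, 43.6 and 43.2 CPM against 40.5, 42.9 and 36.2 CPM. Neither passed, at log2 fold changes of 0.14 (adjusted p = 0.0888) and 0.13 (adjusted p = 0.15). Without control replicate 1 the value for SNRPA was 0.23 and passed (adjusted p = 0.00672).

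Of the SF3A and SF3B subunits, which hold the U2 snRNP on the branch point, 6 of 9 fell and 0 rose, while 3 did not pass, and the median was -0.28. SF3B3, which with SF3B1 and PHF5A forms the core that splicing inhibitors bind, had 289, 308 and 290.2 CPM against 376, 386 and 408 CPM. SF3A3 had 82.2, 88.3 and 89.8 CPM against 116, 121 and 105 CPM, and SF3B4 had 123, 111 and 117 CPM against 149, 155 and 150.3 CPM. The DLX5 libraries were lower throughout, and these genes fell by 0.40, 0.39 and 0.37, each with a standard error of 0.06 or 0.07. SF3B6, which touches the branch point adenosine, had 79.5, 77.2 and 80.0 CPM against 96.4, 106 and 93.7 CPM and fell by 0.32. SF3A1 had 127, 127 and 130 CPM against 152, 153 and 162 CPM and fell by 0.28. Neither overlapped between groups. SF3B5, the most abundant per length at 92.1 FPKM with DLX5 and 110 FPKM in control, had 61.7, 60.9 and 70.7 CPM against 80.7, 75.5 and 75.2 CPM (-0.26).

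SF3B1, the largest subunit and a frequent site of mutation in leukaemia and uveal melanoma, had 382, 384 and 365 CPM with DLX5 and 333, 389 and 363 CPM in control. The groups overlapped, and the log2 fold change of 0.06 ± 0.06 did not pass (adjusted p = 0.437). SF3A2 had 98.7, 84.7 and 94.5 CPM against 94.7, 81.3 and 90.4 CPM, with overlap (0.06, adjusted p = 0.468). SF3B2 had 319, 333 and 332 CPM against 369, 346 and 347 CPM. Its DLX5 libraries were all below control, but it did not pass (-0.11, adjusted p = 0.0996; with upper-quartile factors, -0.15 and adjusted p = 0.0313). SF3A2 overlaps PLEKHJ1, which held 75.3% as many counts and fell by 0.52.

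The U2AF subunits could not be read equally well. U2AF2, the large subunit that binds the pyrimidine tract, had 202, 189 and 219 CPM with DLX5 and 314, 267 and 295 CPM in control. Every DLX5 library was below every control, and it fell by 0.52 ± 0.07 (adjusted p = 2.06e-07), to 69.6% of control. U2AF1, the small subunit that reads the AG, had 3.07, 18.7 and 7.43 CPM against 11.6, 5.33 and 8.95 CPM (chromosome 21, 43092956 to 43107587, minus strand). No other member varied so much within a group. Its log2 fold change was 0.17 ± 0.33 (adjusted p = 0.689), became 0.60 without DLX5 replicate 1 (adjusted p = 0.0376) and -0.71 without DLX5 replicate 2 (adjusted p = 0.0199).

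U2AF1 has an annotated copy, U2AF1L5, whose 720 coding bases are identical to its own, and 94.3% of the 50-base stretches of U2AF1 also occur in another gene. The copy had 653, 98 and 108 counts with DLX5 and 128, 113 and 120 counts in control, so DLX5 replicate 1 was low for the one and high for the other. Summed over both, the libraries stood at 42.4, 25.0 and 14.0 CPM with DLX5 and at 20.2, 12.1 and 16.3 CPM in control. The sums overlap, and no direction is drawn for U2AF1.

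**Figure D3:**
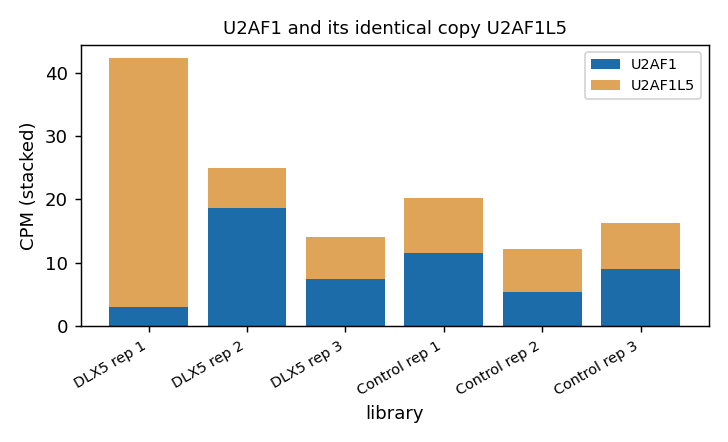
Stacked bars give CPM of U2AF1 and of its copy U2AF1L5 in each of the 6 libraries. DLX5 replicate 1 holds 39.3 CPM of the copy, whereas every other library holds between 6.33 and 8.58 CPM, and DLX5 replicate 2 holds the most U2AF1.

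Relatives within a family were compared by the log2 ratio of their counts in each library. There were 8 pairs, and an exact two-sided permutation test on 3 against 3 libraries cannot give a p under 0.1. SRSF1 over SRSF9 stood at -1.02, -0.80 and -1.10 with DLX5 and at -0.53, -0.02 and -0.20 in control, a drop of 0.73. SNRPB over SNRPN dropped by 0.78. SRSF4 over SRSF6 moved the other way, by 0.45, and SRSF2 over SRSF8 dropped by 0.24. HNRNPU over HNRNPUL1 dropped by 0.21, HNRNPL over HNRNPLL by 0.20 and HNRNPA1 over HNRNPA2B1 by 0.10, while HNRNPH1 over HNRNPH2 differed by 0.14. No pair could therefore pass, and the changes are given as a description. The ratios of the 2 groups did not overlap in 7 of the 8 pairs, all but HNRNPH1 over HNRNPH2. Single genes were separated in this way in 62.5% of all tested genes, and the share over other gene pairs was not computed. The ratios with SNRPN and with SRSF1 carry the uncertainty of the reads of those genes. The coding sequences of SRSF1 and SRSF9 were 60.3% identical and those of HNRNPH1 and HNRNPH2 82.5%.

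**Figure D4:**
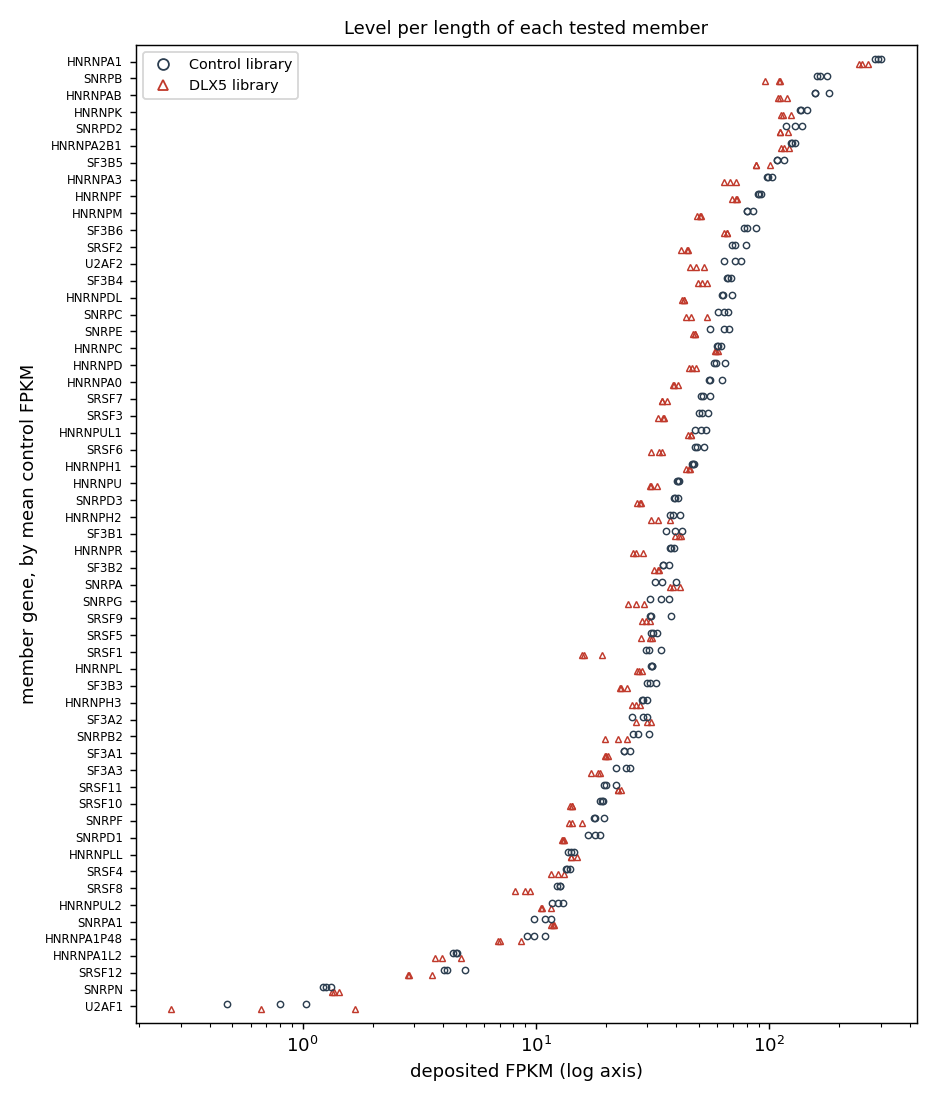
The deposited FPKM of each tested member is shown on a log axis, with circles for the 3 control libraries and triangles for the 3 DLX5 libraries, ordered by mean control level. HNRNPA1 is at the top, at a mean of 292 FPKM in control.

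Other genes of the splicing pathway were taken from 7 lists of 142 genes, 138 of which could be tested. Together 66 were called lower, 21 higher and 51 neither, and the median log2 fold change was -0.17. These were 47.8% lower and 15.2% higher, where the shares for all tested genes were 28.8% lower and 29.8% higher. Of tested genes at 40 CPM or more, 40.3% were lower and 30.5% higher, though the lists were not limited to that level. By list the share called lower ran from 23.1% for SR kinases, TRA2 and SR-like proteins to 62.5% for LSm proteins. Of 19 other proteins of U1, U2 and the minor spliceosome 7 fell, 3 rose and 9 did not pass (median -0.07). The minor spliceosome protein SNRNP25 fell by 0.80 ± 0.09, the branch point binding protein SF1 fell by 0.36 ± 0.06, the helicase DDX46 fell by 0.36 ± 0.06 and PHF5A fell by 0.50 ± 0.10. RNPC3, also of the minor spliceosome, rose by 0.59 ± 0.12. SNRNP70, the U1 70K protein, did not pass, at 0.13.

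LSm proteins form the ring of U6 and, with LSM1, a cytoplasmic ring for message decay. Of 8 tested 5 fell, 1 rose and 2 did not pass (median -0.32). LSM3 fell by 0.60 ± 0.10, and LSM4 and LSM5 fell by 0.49 each, while LSM1 rose by 0.41 ± 0.09. Of 31 proteins of the U4/U6.U5 tri-snRNP and the catalytic core 16 fell, 3 rose and 12 did not pass (median -0.22). The ubiquitin ligase PRPF19 went from 220 ± 7.57 to 140 ± 6.95 CPM (SD, n = 3) and fell by 0.66 ± 0.06. TXNL4A, PPIH and SNU13 fell by 0.54, 0.53 and 0.39, and CDC40 rose by 0.26 ± 0.08. Of 15 proteins that assemble Sm rings 9 fell, 0 rose and 6 did not pass (median -0.24). WDR77, a partner of the methyltransferase PRMT5 that modifies Sm tails, fell by 0.76 ± 0.08, and GEMIN4, GEMIN5 and TGS1, the cap methylase, fell by 0.59, 0.49 and 0.35. SMN1 had a log2 fold change of -0.95 ± 0.29 and passed (adjusted p = 0.00688), but its groups overlapped and it is nearly identical to SMN2, so its value is uncertain.

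The CLK kinases, which phosphorylate SR proteins in the nucleus, were higher with DLX5. Of 13 tested SR kinases, TRA2 proteins and SR-like proteins 4 rose, 3 fell and 6 did not pass (median 0.04), and the 4 that rose were CLK1, CLK2, CLK3 and CLK4. CLK1 went from 21.2 to 34.3 CPM and rose by 0.69 ± 0.09, and CLK4, CLK3 and CLK2 rose by 0.69, 0.33 and 0.23. The splicing activator TRA2B went from 221 to 151 CPM and fell by 0.54 ± 0.06. SRPK1, which sends SR proteins to the nucleus, fell by 0.38 ± 0.06, and DYRK1A fell by 0.30 ± 0.07.

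Tissue-regulated splicing regulators held changes of up to 3.34 on the log2 scale. Of 36 tested 19 fell, 9 rose and 8 did not pass (median -0.22). CELF2 went from 2.66 ± 0.281 to 27.1 ± 1.64 CPM (SD, n = 3) and rose by 3.34 ± 0.13, and MBNL2 rose by 1.31 ± 0.08. The neuronal RNA-binding proteins ELAVL4 and ELAVL3 fell by 1.31 ± 0.06 and 1.04 ± 0.06. Of 16 genes of the exon junction complex and nonsense-mediated decay 7 fell, 1 rose and 8 did not pass (median -0.14). RBM8A, the Y14 protein of the exon junction complex, went from 166 to 93.0 CPM and fell by 0.84 ± 0.06. RNPS1 and the helicase EIF4A3 fell by 0.52 and 0.51, and SMG1, the kinase that starts nonsense-mediated decay, rose by 0.46 ± 0.06.

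**Figure D5:**
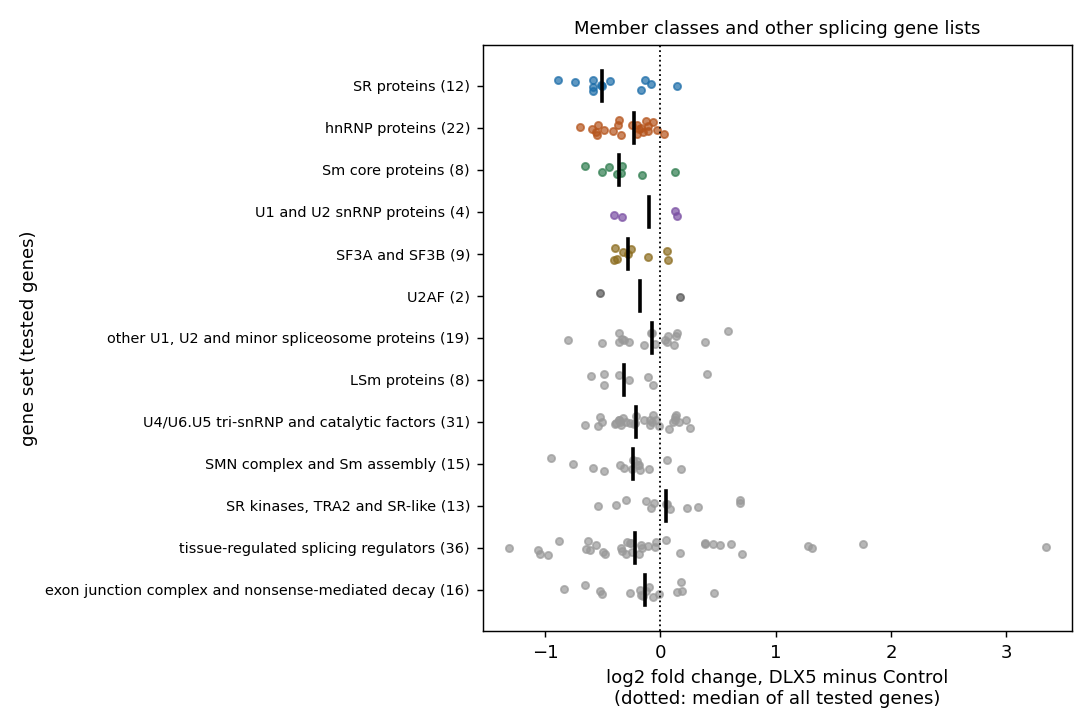
Each point is the log2 fold change of a tested gene, with the 6 member classes above the 7 other splicing lists and the number of tested genes in brackets. Short vertical lines are medians, which run from -0.51 for SR proteins to 0.04 for the list of SR kinases, and CELF2 is the point at 3.34.

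How well reads can be assigned bears on these values. Another annotated gene overlapped 34 of the 61 members, and for 10 of them an overlapping gene held over 10% as many counts. Apart from those named beside their values these were HNRNPA2B1 with CBX3 (28.98%), SRSF9 with GATC (19.1%), SNRPA with C19orf54 (19.4%), HNRNPH3 with RUFY2 (18%), SRSF2 with MFSD11 (15.3%) and HNRNPAB with PHYKPL (12.45%). Of 182 pseudogenes named after members 79 had any count, and together they held 0.429% of the counts of members and pseudogenes. This low share cannot show that reads were well placed, because how reads matching several genes were counted was not tested. The median member shared 2.17% of its 50-base stretches with another gene, and 37 of 61 shared under 5%. At the other end 8 members shared over 50%, while HNRNPA3 and SNRPB shared 16.5% and 15.7%.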

How the data were processed

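Per the labels' protocols, SY5Y RNA was isolated with Trizol and 6 libraries were prepared with NEBNext Ultra reagents. The deposited counts are whole reads per gene and library. The submitters' processing notes list HISAT2 2.0.5 with featureCounts 1.5.0-p3. No source used here states whether counting used strand, and reads of antisense overlaps may therefore be shared. Those notes name hg19, yet the coordinates of all 58735 genes are those of GENCODE 29 on GRCh38, which is the build printed. The FPKM values were deposited by the authors, come from the same reads and serve here only for levels per length and as an alternative.

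Genes were kept with filterByExpr (17269 genes), scaled by TMM and compared between 3 DLX5 and 3 Control libraries with the two-sided quasi-likelihood test of edgeR 4.0.16 in R 4.3.3, with Benjamini-Hochberg adjustment over all tested genes. Beside CPM or FPKM, ± gives the SD of 3 libraries. Beside a log2 fold change it gives the SE, taken as the absolute change divided by the square root of F. Libraries of a group differed by 2.32 to 5.52 times sampling noise, so none was taken for a copy. No correlation of deviations between libraries of one replicate number exceeded 0.0944, so the numbers were not taken to pair them.

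Members and lists were chosen with earlier results of these data known. Values in every library were given, in each class, for up to 5 members with the smallest adjusted p, the most abundant per length and those that did not pass, and in each list the 4 smallest adjusted p and the largest rise and fall were named. HNRNPAB, SRSF9, SRSF11, SNRPD2, CLK2, CLK3, DYRK1A, SNRNP70, PECAM1 and the members given by fold change alone were outside this rule and chosen after their values were seen. Promoters came from RefSeq, transcripts from GENCODE 29.

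Other settings tried were DESeq2 1.42.0, limma-voom (limma 3.58.1), upper-quartile or RLE factors, each library left out, an adjusted p under 0.01, no filter, 1 CPM in 3 libraries, protein-coding genes only, a replicate block, and limma on log2(FPKM + 0.1) or log2(FPKM + 1). Library totals with no scaling factors were added after the data were seen. Figures were drawn with matplotlib 3.10.9.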

Additional observations from a re-analysis of the deposited data

How the results depend on the processing

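All 42 members that passed kept their direction in the 17 other fits, and 35 of them passed in every one. The number of members that fell, 41, was 40 with DESeq2, RLE factors, limma-voom or a filter of 1 CPM, 39 on either FPKM scale, 45 with upper-quartile factors, 47 with library totals and no scaling factors (chosen after seeing the data), 35 at an adjusted p under 0.01 and 35 to 40 with a library left out, lowest without DLX5 replicate 1. The number that rose, 1 (SRSF11), was 0 with no scaling factors, upper-quartile factors, no filter, log2(FPKM + 1), log2(FPKM + 0.1) and an adjusted p under 0.01, and 0 to 1 with a library left out. It was 0 without Control replicate 3, DLX5 replicate 2 or DLX5 replicate 3. SRSF11 lost its call without Control replicate 1 and without DLX5 replicate 1 too, where the 1 member that rose was SNRPA (0.2266) and U2AF1 (0.6031) in that order. With upper-quartile factors SRSF4, SF3B2, HNRNPA2B1 and HNRNPH3 also passed as falls, at adjusted p from 0.0224 to 0.036. Without scaling factors the median of all genes moved to -0.07 and that of the members to -0.40. The log2 fold changes that changed sign belonged to members that had not passed: SF3B1 (-0.0089 with no scaling factors, and -0.0002 to 0.1089 with a library left out, lowest without Control replicate 1), SF3A2 (-0.0045 and -0.0025 to 0.1260, lowest without Control replicate 2), HNRNPLL (-0.0380 with no scaling factors and -0.0059 with upper-quartile factors) and U2AF1 (-0.1362 with limma-voom, -0.0756 on log2(FPKM + 0.1), and -0.7051 to 0.6031 with a library left out, including -0.0952 without Control replicate 2). The cause was not tested. With the replicate number as a block 5208 genes rose and 5016 fell, among them 1 and 41 members, and no member's call changed; the correlations between same-numbered libraries were 0.00688, 0.0944 and -0.0399. With 3 libraries a group, small changes such as those of SRSF9, SRSF11, SNRPD2 and HNRNPUL1 lie at the limit of what the test calls.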
